A study of Mus musculus with 12 samples.

Results

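The CXC chemokines examined here were 10 genes, Cxcl1, Cxcl2, Cxcl3, Cxcl5, Cxcl9, Cxcl10, Cxcl11, Cxcl12, Cxcl14 and Cxcl16, found by the Ensembl gene ID of each symbol among the 57010 IDs of 12 count tables. Poly(A) RNA had been sequenced from chondrocytes, the resident cells of cartilage, taken from mice as primary cells and labelled as wild type in genotype. Control, WT and SIRT5F101L are the treatment labels, with 4 libraries each. Cells labelled WT or SIRT5F101L were transfected with a plasmid of that name, SIRT5F101L being a mutant of the mitochondrial deacylase SIRT5. What the Control cells received, and the strain, sex and age of the mice, are not given in the sources used here, so transfection itself and what the plasmids encode cannot be told apart against Control. The labels do not say whether the libraries of a group came from separate cultures or animals. The p-values therefore measure only the spread between these libraries, which may be technical.

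CXC chemokines are small secreted proteins that bind G protein-coupled receptors and direct the movement of leukocytes. Members that carry the ELR motif before the first cysteine, such as CXCL1, CXCL2, CXCL3 and CXCL5, attract neutrophils through CXCR2 and are typical targets of NF-kB in stromal cells exposed to inflammatory cytokines. CXCL9, CXCL10 and CXCL11 are induced by interferon and attract activated T cells through CXCR3. CXCL12, CXCL14 and CXCL16 are made without stimulation in many tissues, and CXCL12, which signals through CXCR4, is made by skeletal stromal cells and chondrocytes.

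Sequences upstream of the transcription start are shown for 5 members that rose and for Cxcl12, which fell, so that motif matches can be read beside the direction of change. RefSeq windows of 250 bases, build GRCm38.p6, were found for 7 of the 10 members. They were searched on both strands for GGG and TTCC with any 3 bases between them (an NF-kB type site), GAAA and GAAA with any 2 bases between them (an interferon-response type), TTCNNNGAA (a gamma-interferon activated type) and TATAAA, and overlapping matches were kept. Each line below is written 5′ to 3′ on the strand of the gene, ends at the base before the start, and has matches in capitals.
Cxcl1: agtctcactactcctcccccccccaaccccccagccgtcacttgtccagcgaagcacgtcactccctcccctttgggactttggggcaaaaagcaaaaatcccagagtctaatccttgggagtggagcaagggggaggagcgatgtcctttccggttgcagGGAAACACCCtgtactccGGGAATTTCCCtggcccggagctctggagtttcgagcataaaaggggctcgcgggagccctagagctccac
Cxcl2: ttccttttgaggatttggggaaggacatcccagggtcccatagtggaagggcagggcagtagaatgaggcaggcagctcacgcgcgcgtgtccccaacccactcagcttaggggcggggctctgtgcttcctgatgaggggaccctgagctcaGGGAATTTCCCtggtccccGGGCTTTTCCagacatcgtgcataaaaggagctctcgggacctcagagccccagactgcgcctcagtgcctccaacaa
Cxcl3: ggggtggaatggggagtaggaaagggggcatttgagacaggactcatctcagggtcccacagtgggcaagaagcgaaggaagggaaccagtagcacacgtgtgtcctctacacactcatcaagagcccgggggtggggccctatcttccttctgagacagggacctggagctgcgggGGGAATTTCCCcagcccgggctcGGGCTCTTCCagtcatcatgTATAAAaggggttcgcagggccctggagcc
Cxcl9: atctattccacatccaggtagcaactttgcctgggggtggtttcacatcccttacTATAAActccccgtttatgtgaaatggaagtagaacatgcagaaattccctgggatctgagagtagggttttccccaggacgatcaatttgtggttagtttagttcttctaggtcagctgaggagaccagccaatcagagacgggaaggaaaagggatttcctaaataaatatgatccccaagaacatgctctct
Cxcl12: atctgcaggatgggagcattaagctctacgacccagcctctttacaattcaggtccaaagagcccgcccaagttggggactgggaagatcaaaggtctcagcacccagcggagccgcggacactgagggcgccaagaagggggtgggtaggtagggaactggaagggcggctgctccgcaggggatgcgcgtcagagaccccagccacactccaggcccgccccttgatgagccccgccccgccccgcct
Cxcl14: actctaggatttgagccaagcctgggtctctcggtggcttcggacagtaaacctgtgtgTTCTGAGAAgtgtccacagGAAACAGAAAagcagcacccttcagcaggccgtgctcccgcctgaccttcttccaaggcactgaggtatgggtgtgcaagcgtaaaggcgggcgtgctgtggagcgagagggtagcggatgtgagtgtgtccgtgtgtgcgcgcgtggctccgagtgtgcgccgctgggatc

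These windows lie at chr5:90890995-90891244 on the plus strand for Cxcl1, chr5:90903649-90903898 on the plus strand for Cxcl2, chr5:90785851-90786100 on the plus strand for Cxcl3, chr5:92328080-92328329 on the minus strand for Cxcl9, chr6:117168285-117168534 on the plus strand for Cxcl12 and chr13:56296552-56296801 on the minus strand for Cxcl14. Cxcl1, Cxcl2 and Cxcl3 share the run gggaatttccc, whose first base lies 71, 97 and 73 bases before their starts. Because this run is a near palindrome, it matches the NF-kB type on both strands at positions shifted by 1 base. In all, 4 of the 7 member windows (Cxcl1, Cxcl2, Cxcl3 and Cxcl10) held the NF-kB type, against 4.65% of 32851 RefSeq windows of the same length. None of the 4 windows found for other CXC ligands (Pf4, Ppbp, Cxcl13 and Cxcl15) held it. Cxcl5, Cxcl11 and Cxcl16 are the members not matched in the RefSeq table. Over the whole windows identity was 48.9% between Cxcl1 and Cxcl2, 50% between Cxcl1 and Cxcl3 and 54.7% between Cxcl2 and Cxcl3. The interferon-response type was found in Cxcl10 and Cxcl14 (2.98% of all windows) and TTCNNNGAA in Cxcl14 (7.02%). TATAAA was found in Cxcl3 and Cxcl9 (12.4%), and the Cxcl12 window held none of the 4 motifs. A match is a description of letters, not a measured binding site.

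Libraries held 15095357 to 24242139 counts, so 1 count was worth 0.0413 to 0.0662 CPM, the count scaled to library size. The floor of 3 counts used below covers counting error only, while the standard errors and intervals come from edgeR's fit and include the spread between libraries. CPM values below were scaled by TMM, edgeR's correction for library composition, and are given as mean ± SD over 4 libraries. Of the 57010 IDs, 14253 passed edgeR's expression filter and were tested, among them 8 of the 10 members. In a principal component analysis of these genes, Control libraries lay at -75.3 to -72.1 and all others at 33.4 to 40.7 on the first component (72.7% of the variance). On the second, with 5.66%, SIRT5F101L replicate 1 lay at 20.3, apart from the other SIRT5F101L libraries at -23.5 to -17.0, while WT replicate 1 lay at -1.07, apart from the other WT libraries at 12.5 to 20.1. Sirt5 itself stood at 0.688 ± 0.169 CPM in Control, 0.383 ± 0.229 in WT and 0.720 ± 0.346 in SIRT5F101L (SD, n = 4) and was not called in any comparison. No rise of Sirt5 was thus detectable in the libraries labelled with either plasmid. The files do not tell whether transcripts of the plasmids would be counted under the mouse gene, so these values do not check the labels, and group names below are those of the labels.

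Cxcl10 and Cxcl11 were listed at 0 in all 12 libraries and were not tested. The zeros may be failed estimates. B2m, Rps10 and Rpl35a, genes that nearly every cell uses and that were chosen after their values were seen, were also listed at 0 throughout, as were all 2414 IDs on the X chromosome and 3916 of 20716 autosomal protein-coding IDs (18.9%). No statement on the expression of Cxcl10 or Cxcl11 is drawn from these files. Cxcl9 is therefore the only interferon-induced member with values.

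Against Control, most of the family rose while its most abundant member, Cxcl12, fell. All 4 neutrophil-attracting members rose in WT and in SIRT5F101L libraries, by 1.91 to 6.85 on the log2 scale, and so did Cxcl9. Of the homeostatic members, Cxcl14 rose, Cxcl12 fell and Cxcl16 passed the test in neither comparison. Genes were called at a Benjamini-Hochberg adjusted p under 0.05 in edgeR's quasi-likelihood test over all 14253 genes. By this rule 6 members were higher and 1 was lower of the 8 tested in each comparison. The share called among all tested genes was 56.8% in WT (28.7% higher, 28.1% lower) and 60.7% in SIRT5F101L (30% higher, 30.7% lower), so a call by itself was common. The size of the change was less common. Cxcl1, Cxcl3, Cxcl5 and Cxcl9 were each over 8-fold higher, as were 1.45% and 1.5% of all genes, and Cxcl12 was over 8-fold lower, as were 0.863% and 0.835%. The median log2 fold change of the 8 members was 2.91 in WT and 3.01 in SIRT5F101L, beside -0.013 and -0.017 over all genes tested. Both comparisons share the 4 Control libraries. In whole cultures, fewer cells of a type and less RNA per cell cannot be told apart. For 7 of the 8 members, no plasmid library overlapped a Control library, which also held for 53.5% of all genes in WT and 51.3% in SIRT5F101L. The plot of levels by library shows this gap for every member but Cxcl16.

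**Figure D1:**
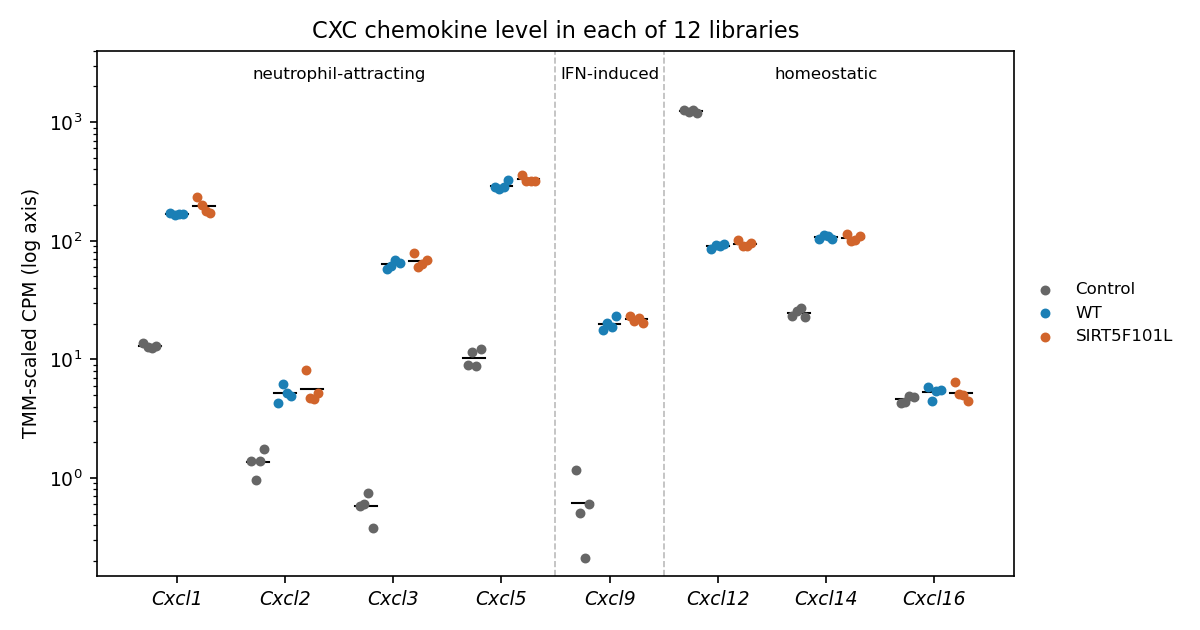
TMM-scaled CPM (log axis) of the 8 members with counts in each of the 12 libraries, coloured by group, with a bar at each group mean. Control points lie apart from WT and SIRT5F101L points for every member but Cxcl16, and above them only for Cxcl12.

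Cxcl5, an ELR chemokine made by epithelial and stromal cells, reached the highest level of the family in the plasmid libraries. Its CPM was 8.996, 11.4, 8.73 and 12.2 in Control replicates 1 to 4, 286, 273, 286 and 322 in WT, and 358, 320, 318 and 320 in SIRT5F101L. The lowest WT library was thus far above the highest Control library. The log2 fold change against Control was 4.82 (SE 0.10) in WT, with an edgeR adjusted p of 7.88e-19, and 4.99 (SE 0.10) in SIRT5F101L, with 4.40e-19. These equal 28.2-fold and 31.7-fold.

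Cxcl3, a close relative of Cxcl2, had the steepest rise of the family. It held only 10, 12, 14 and 7 counts in the Control libraries (0.580, 0.608, 0.745 and 0.382 CPM), against 57.7, 61.5, 68.4 and 64.8 CPM in WT and 78.4, 59.9, 63.8 and 69.0 CPM in SIRT5F101L. Control libraries were near, yet all above, the floor of 3 counts, and no groups overlapped with Control. The log2 fold changes were 6.75 (SE 0.15; edgeR adjusted p = 1.92e-18) and 6.85 (SE 0.15; adjusted p = 1.48e-18). That is 107-fold in WT and 115-fold in SIRT5F101L, ranks 17 and 14 from the top among 14253 genes.

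Cxcl1, the ligand of CXCR2 often used as a readout of NF-kB activity in stromal cells, was already present in Control at 13.8, 12.8, 12.4 and 12.9 CPM. It stood at 170, 164, 170 and 167 CPM in WT, a spread of 1.73% of the mean, and at 232, 199, 178 and 172 CPM in SIRT5F101L, a spread of 14%. Every plasmid library was above every Control library, and SIRT5F101L replicate 1 was the highest. The log2 fold changes were 3.69 (SE 0.089; edgeR adjusted p = 9.88e-18) in WT and 3.91 (SE 0.090; adjusted p = 4.16e-18) in SIRT5F101L.

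Cxcl2, the other classic neutrophil attractant of the cluster, rose least of the 4. Its CPM was 1.39, 0.962, 1.384 and 1.75 in Control, 4.29, 6.22, 5.25 and 4.93 in WT, and 8.07, 4.74, 4.61 and 5.21 in SIRT5F101L. The groups did not overlap with Control, and SIRT5F101L replicate 1 again stood highest. Against Control, Cxcl2 changed on the log2 scale by 1.91 (SE 0.23; edgeR adjusted p = 6.16e-07) in WT and 2.04 (SE 0.23; adjusted p = 1.97e-07) in SIRT5F101L. The longest Cxcl2 and Cxcl3 transcripts are 90.7% identical over 550 bases, although only 5.61% and 3.32% of their lengths are at least 95% identical to each other, so some reads of this pair could have been split or dropped in counting. The ratio of Cxcl3 to Cxcl2 per kilobase moved from 0.267 ± 0.105 in Control to 7.31 ± 0.985 in WT and 7.30 ± 1.08 in SIRT5F101L (SD, n = 4).

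Cxcl9, the interferon-inducible ligand of CXCR3, was near the floor in Control, with 20, 10, 4 and 11 counts (1.16, 0.507, 0.213 and 0.600 CPM). WT libraries held 17.6, 20.4, 18.7 and 23.2 CPM and SIRT5F101L libraries 23.0, 21.1, 22.4 and 20.2 CPM. The groups did not overlap with Control, whose own spread was 63.9% of its mean. The log2 fold changes were 5.02 (SE 0.21; edgeR adjusted p = 4.34e-14) in WT and 5.14 (SE 0.21; adjusted p = 2.55e-14) in SIRT5F101L.

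Cxcl12, also called SDF-1, was the dominant member in Control and the only one that fell. Its CPM was 1255, 1222, 1266 and 1183 in Control, 86.0, 92.9, 89.8 and 94.1 in WT, and 102, 89.8, 90.04 and 95.5 in SIRT5F101L. The plasmid libraries were close together and far below Control. On the log2 scale Cxcl12 changed by -3.76 (SE 0.064; edgeR adjusted p = 6.63e-20) in WT and -3.71 (SE 0.064; adjusted p = 6.47e-20) in SIRT5F101L, or 13.6-fold and 13.0-fold lower. Among all tested genes these were the 62nd and 66th lowest fold changes.

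Cxcl14, a homeostatic chemokine of epithelia and connective tissue, moved the opposite way. It stood at 23.3, 25.6, 27.0 and 22.5 CPM in Control, 103, 113, 109 and 103 CPM in WT, and 114, 99.8, 101 and 110 CPM in SIRT5F101L. The plasmid groups overlapped each other and not Control. The log2 fold changes were 2.12 (SE 0.073; edgeR adjusted p = 1.88e-15) and 2.11 (SE 0.073; adjusted p = 1.79e-15). Cxcl16, which is made as a membrane-bound ligand of CXCR6, held 4.29, 4.36, 4.90 and 4.80 CPM in Control, 5.82, 4.49, 5.43 and 5.50 in WT, and 6.41, 5.06, 4.97 and 4.42 in SIRT5F101L. All 3 groups overlapped. Its log2 fold change was 0.21, with a 95% interval of -0.10 to 0.53, in WT and 0.18, with an interval of -0.13 to 0.50, in SIRT5F101L (edgeR adjusted p = 0.236 and 0.301). Exons of Zmynd15 cover 18.3% of the Cxcl16 exons and the strand setting of the counting is not given in the sources used here, so the Cxcl16 values are uncertain.

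**Figure D2:**
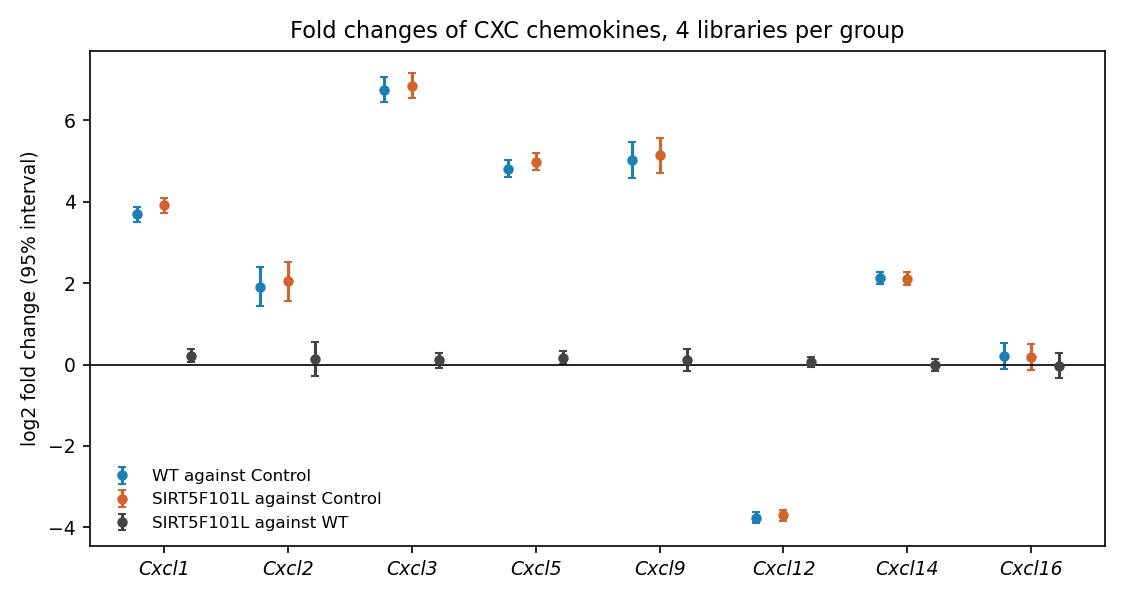
Log2 fold changes of the 8 tested members in the 3 comparisons, with 95% intervals from edgeR, 4 libraries a group. Both comparisons with Control place Cxcl3 highest and Cxcl12 lowest, and estimates for SIRT5F101L against WT lie between -0.029 and 0.22.

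Between SIRT5F101L and WT, no member passed the test in edgeR, and DESeq2 also called 0 of the 8. Of all 14253 genes, edgeR called 6 (0.0421%). At an unadjusted p under 0.05, Cxcl1 and Cxcl5 passed, beside 11.9% of all genes. Cxcl1 was the only member whose 2 plasmid groups did not overlap, with SIRT5F101L at 172 to 232 CPM and WT at 164 to 170, which held for 4.02% of all genes. Its log2 difference was 0.22, with a 95% interval of 0.063 to 0.38 and an edgeR adjusted p of 0.360. For Cxcl5 it was 0.17, with an interval of 0.0079 to 0.33 and an adjusted p of 0.409. Cxcl2 had the widest interval, -0.28 to 0.54 around 0.13, and the interval of Cxcl16 was -0.34 to 0.28. The intervals of Cxcl3 (-0.073 to 0.28), Cxcl9 (-0.16 to 0.39), Cxcl12 (-0.067 to 0.18) and Cxcl14 (-0.15 to 0.13) also included 0. A missed threshold does not show that the mutant and wild-type plasmids act alike, and these intervals give the sizes that the data allow.

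SIRT5F101L replicate 1, the library that stood apart on the second component, had the highest CPM of the 8 plasmid libraries for 7 of the 8 members. The exception was Cxcl9, highest in WT replicate 4 at 23.2 CPM. Without SIRT5F101L replicate 1 the log2 difference from WT was 0.13 for Cxcl1 and for Cxcl5, -0.086 for Cxcl2, 0.028 for Cxcl3, 0.090 for Cxcl9, 0.019 for Cxcl12, -0.043 for Cxcl14 and -0.14 for Cxcl16. No member was called there either, while 2212 genes in all were. Without WT replicate 1, the WT library that stood apart, edgeR called 0 members and 0 genes in all. Against Control, SIRT5F101L without this library gave 3.82 for Cxcl1, 1.82 for Cxcl2, 6.78 for Cxcl3, 4.94 for Cxcl5, 5.11 for Cxcl9, -3.74 for Cxcl12, 2.08 for Cxcl14 and 0.072 for Cxcl16, and the same number of members, 7, was called.

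Levels were next compared between members, divided by the longest GENCODE M21 transcript. In Control, Cxcl12 stood at 219 ± 6.60 CPM per kilobase (SD, n = 4) and made up 88.4% ± 0.449 of the summed level of the 8 members with counts. Cxcl14 followed at 13.5 ± 1.12, Cxcl1 at 6.94 ± 0.321, Cxcl5 at 5.55 ± 0.939, Cxcl16 at 1.70 ± 0.113 and Cxcl2 at 0.664 ± 0.155. Cxcl9 and Cxcl3, at 0.215 ± 0.137 and 0.165 ± 0.0428, did not differ beyond their spread. No other neighbours in this order overlapped.

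In WT the order changed to Cxcl5 at 157 ± 11.3 CPM per kilobase, Cxcl1 at 89.6 ± 1.55, Cxcl14 at 58.6 ± 2.64, Cxcl3 at 18.0 ± 1.30, Cxcl12 at 16.1 ± 0.649, Cxcl9 at 6.92 ± 0.844, Cxcl2 at 2.50 ± 0.389 and Cxcl16 at 1.97 ± 0.212 (SD, n = 4). SIRT5F101L had the same order, led by Cxcl5 at 177 ± 10.4 and Cxcl1 at 104 ± 14.6. Cxcl3 and Cxcl12, and Cxcl2 and Cxcl16, overlapped in both groups. With the union of exons as length, Cxcl12 read 151, 11.1 and 11.5 CPM per kilobase in the 3 groups and Cxcl16 read 1.52 in Control.

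The summed level of the 8 members with counts rose from 248 ± 6.41 CPM per kilobase in Control to 350 ± 11.5 in WT and 387 ± 31.1 in SIRT5F101L. Its make-up turned over. The neutrophil-attracting members held 5.39% ± 0.520 of it in Control, 76.1% ± 1.18 in WT and 78.2% ± 0.981 in SIRT5F101L (SD, n = 4). The homeostatic members held 94.5% ± 0.535, 21.9% ± 1.19 and 19.9% ± 0.976, and Cxcl12 alone fell to 4.60% ± 0.161 and 4.34% ± 0.169. Cxcl9 rose from 0.0868% ± 0.0547 in Control to 1.97% ± 0.192 in WT and 1.94% ± 0.124 in SIRT5F101L. Cxcl12 exceeded Cxcl5 by 40.4 ± 7.90 times per kilobase in Control, while Cxcl5 exceeded Cxcl12 by 9.73 ± 0.636 times in WT and 10.5 ± 0.276 times in SIRT5F101L. The stacked plot of family make-up shows the exchange in every library. These shares describe transcripts, not secreted protein. Cxcl10 and Cxcl11 add nothing because they were listed at 0, so the sums and shares hold only for the 8 members with counts. Other CXC ligands were left out, among them Ppbp at 1.36, 59.6 and 52.3 CPM per kilobase in Control, WT and SIRT5F101L.

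**Figure D3:**
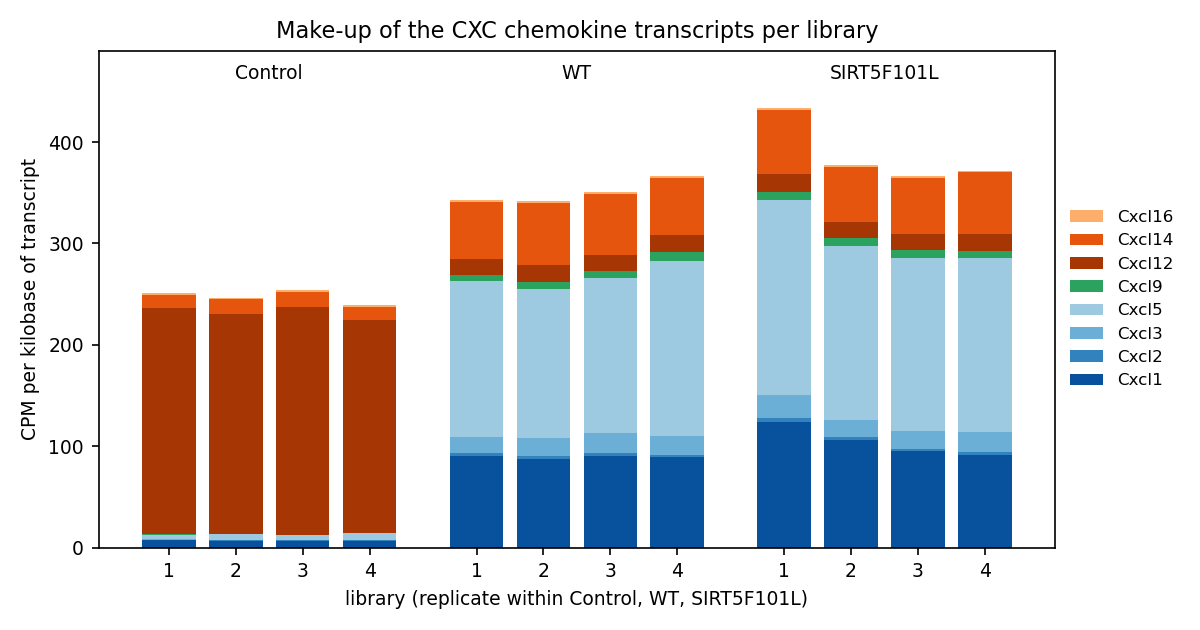
Stacked CPM per kilobase of the 8 members in each library. Cxcl12 fills most of each Control bar, and Cxcl5 with Cxcl1 fills most of each WT and SIRT5F101L bar. The tallest bar is SIRT5F101L replicate 1.

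The other CXC ligands behaved unevenly. Ppbp, whose product is cut to a CXCR2 ligand and which is best known from platelets, held 1.45, 2.33, 0.532 and 1.58 CPM in Control, 59.9, 65.0, 60.5 and 72.8 in WT, and 60.0, 58.2, 57.0 and 51.2 in SIRT5F101L. It did not overlap with Control. Its log2 fold changes were 5.44 and 5.25 (edgeR adjusted p = 7.52e-16 and 1.29e-15). Pf4, the platelet chemokine next to it on the chromosome, was called at 0.67 in WT and 0.68 in SIRT5F101L (edgeR adjusted p = 0.0408 and 0.0351), from 1.39 ± 0.261 CPM in Control to 2.22 ± 0.732 and 2.24 ± 0.489. Its groups overlapped, and the Pf4 call in WT was lost without Control replicate 1, 2 or 4 or WT replicate 2 or 4, with adjusted p up to 0.218. The Pf4 call in SIRT5F101L was lost without Control replicate 1, 2 or 4 or SIRT5F101L replicate 1, 2 or 3, with adjusted p up to 0.100. Cxcl13 (at most 5 counts) and Cxcl15 (at most 10) did not pass the filter, and Cxcl17 was listed at 0.

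Among the receptors, the scavenger Ackr3, which takes up CXCL12, rose where its ligand fell. It held 32.1, 28.6, 35.0 and 32.2 CPM in Control, 133, 144, 131 and 159 in WT, and 161, 163, 157 and 157 in SIRT5F101L, and neither plasmid group overlapped with Control. The log2 fold changes were 2.15 and 2.32 (SE 0.07 each; edgeR adjusted p = 1.69e-15 and 5.01e-16). The ratio of Cxcl12 to Ackr3 per kilobase was 21.1 ± 1.62 in Control, 0.349 ± 0.0205 in WT and 0.323 ± 0.0199 in SIRT5F101L (SD, n = 4). The signalling receptor Cxcr4 was low, at 1.04 ± 0.441, 0.754 ± 0.149 and 0.653 ± 0.473 CPM, and was not called (log2 fold change -0.46 and -0.74; edgeR adjusted p = 0.398 and 0.175). Without SIRT5F101L replicate 2 the latter was -1.28, with an adjusted p of 0.0279.

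The remaining receptors were near the floor. Ackr2, a scavenger of CC chemokines, held 0, 1, 0 and 3 counts in Control, 20, 11, 27 and 22 in WT, and 8, 18, 42 and 18 in SIRT5F101L, and was called in both comparisons (edgeR adjusted p = 2.35e-05 and 2.11e-05). Its fitted size rests on near-empty Control libraries. Cxcr5, the CXCL13 receptor, was called in WT (log2 fold change 1.94; edgeR adjusted p = 0.00695) with 7 to 13 counts against 1 to 5 in Control. In SIRT5F101L it was 1.14 (adjusted p = 0.121) and ran from 0.51 to 1.59 with 1 library left out. The 2 plasmid groups did not pass edgeR's test for a difference in Cxcr5 (adjusted p = 0.516). Cxcr1 and Cxcr2, the receptors of the neutrophil-attracting members, had at most 8 counts in any library and were not tested. Cxcr3, Cxcr6 and Ackr4 were listed at 0, and Ackr1 had at most 1 count.

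Genes that act upstream of these chemokines were counted by list. Of 17 cytokines, receptors and adaptors of the interleukin-1, tumour necrosis factor, interleukin-17 and Toll-like receptor pathways, 12 were tested, of which 6 rose, 2 fell and 4 did not pass the test, in WT as in SIRT5F101L. The median log2 fold change was 0.24 and 0.31, beside -0.013 and -0.017 over all genes tested. Over all genes, 28.7% rose and 28.1% fell in WT, and 30% rose and 30.7% fell in SIRT5F101L. These shares apply to the lists below too, and whether a list exceeds them was not tested. Those with the lowest adjusted p were the lipopolysaccharide co-receptor Cd14 (2.05 and 2.27), Tlr4 (1.10 and 1.19) and Tlr2 (1.05 and 1.17), with edgeR adjusted p of at most 2.41e-10. Il1rn, the interleukin-1 receptor antagonist and the only ligand of the list that was tested, went from 685 ± 42.6 CPM in Control to 411 ± 17.9 in WT and 432 ± 26.5 in SIRT5F101L (log2 fold change -0.74 and -0.67; edgeR adjusted p = 3.58e-09 and 1.53e-08). The agonist cytokines did not pass the filter: Il1b had at most 7 counts in a library and Il1a at most 3, and Tnf had 6 to 19 counts in Control and 0 to 5 in the plasmid libraries. These 4 were named after their values were seen. Myd88 and Irak1 were listed at 0.

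Of 14 NF-kB subunits, kinases and inhibitors, all tested, 9 rose, 2 fell and 3 did not pass the test in each comparison with Control, with medians of 0.38 and 0.39. Nfkbiz, a nuclear cofactor needed for a subset of NF-kB targets, went from 32.2 ± 4.59 CPM in Control to 202 ± 15.7 and 226 ± 23.2 (log2 fold change 2.65 and 2.81). Bcl3, a related nuclear cofactor, rose by 1.63 in both, and the subunit Nfkb1 by 0.94 and 1.06 (the highest edgeR adjusted p among these 6 values was 1.21e-10).

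On the interferon side, 14 of 15 genes were tested, of which 6 rose, 5 fell and 3 did not pass the test in each comparison, with medians of 0.097 and 0.11. Irf7, itself interferon-induced, rose from 144 ± 6.89 CPM to 453 ± 19.5 in WT and 450 ± 36.1 in SIRT5F101L (log2 fold change 1.65 in both). The kinase Jak1, which signals from interferon receptors, rose by 0.42 and 0.55. The highest edgeR adjusted p among these values was 2.92e-06. Ifnb1 had at most 3 counts in any library.

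Stability of chemokine mRNA is set by factors that speed decay and factors that protect transcripts. Of these, 10 were listed and tested together, so the counts mix both kinds. In WT, 5 rose and 2 fell, and in SIRT5F101L 6 rose and 2 fell, with medians of 0.28 and 0.36. Zc3h12a, the RNase Regnase-1 that degrades inflammatory transcripts, rose by 1.30 and 1.41, and its opponent Arid5a, which protects some of them, by 1.09 and 0.98. Zfp36l1, which promotes decay of AU-rich transcripts, rose by 0.38 and 0.55. Among 9 proteases that cut CXC chemokines or shed CXCL16, 7 were tested. In WT 2 rose and 3 fell, and in SIRT5F101L 3 rose and 3 fell, with medians of -0.25 and 0.088. The collagenase Mmp13 rose by 2.56 and 2.82, while Mmp2, which inactivates CXCL12, fell by 1.17 and 0.96 and Mmp14 by 0.92 and 0.996 (edgeR adjusted p at most 5.82e-05 for the 6 genes named here). No gene of these 5 lists was called between SIRT5F101L and WT. Without SIRT5F101L replicate 1, between 2 and 4 genes of each list were, beside 2212 of all 14528 genes tested in that fit.

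The summed level of 10 chondrocyte markers, the labelled cell type, ran from 9034 to 11337 CPM in Control, 2814 to 2930 in WT and 2293 to 2538 in SIRT5F101L, so the sum was lower with either plasmid. Of the 10 markers, 8 fell in each comparison. Acan and Hapln1 rose in WT (log2 fold change 0.47 and 0.25; edgeR adjusted p = 1.78e-05 and 0.00432). In SIRT5F101L, Acan was not called (0.10; adjusted p = 0.243), and Hapln1 was called at 0.18 (adjusted p = 0.0329) but not without Control replicate 1, 2 or 3 or SIRT5F101L replicate 2, with adjusted p up to 0.175. Because CXC chemokines are also made by leukocytes, markers of these cells were summed too. Macrophage markers, with Itgam listed at 0, summed to 177 to 213, 92.9 to 102 and 88.9 to 114 CPM. Of the 9 tested, 9 fell in WT and 8 in SIRT5F101L. Neutrophil markers, with S100a9 listed at 0, summed to 4.64 to 8.82, 48.9 to 60.9 and 51.6 to 87.1 CPM. Most of that in the plasmid libraries was S100a8 (0.385 ± 0.161, 48.6 ± 6.65 and 57.3 ± 15.9 CPM in the 3 groups), which is also expressed outside neutrophils, whereas in Control most was Itgb2 (5.23 ± 2.09 CPM). Ly6g and Camp rose as well, from at most 2 and 8 counts in Control to 6 to 17 and 21 to 58, while Itgb2 fell, and Csf3r, Elane, Mpo and Ltf had at most 11 counts in any library. The sum of 7 lymphocyte markers, 4 of them listed at 0, was at most 1.01 CPM, and that of 6 endothelial markers 6.73 to 9.97 CPM. Fibroblast and synovial markers summed to 18701 to 22150, 8731 to 9638 and 9124 to 9835 CPM, but only 3 of these 6 fell. Dcn (log2 fold change 1.44 and 1.66), Pdgfra (0.39 and 0.62) and Prg4 (0.41 and 0.54) rose in WT and in SIRT5F101L (edgeR adjusted p at most 8.25e-05). The marker genes named singly here were chosen after their values were seen. The part of these shifts in the chemokine values was not tested.

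Of the members, 7 lie in one stretch of chromosome 5, which by gene order in GENCODE M21 runs from Cxcl5 to Cxcl11. It holds 26 genes when only protein-coding genes and the members are counted. Besides CXC ligands it holds 16 other genes, 15 of them tested. In WT 10 of these rose, 1 fell and 4 did not pass the test, and in SIRT5F101L 12 rose, 1 fell and 2 did not. Their median log2 fold change was 0.70 and 0.79, beside -0.013 and -0.017 over all genes tested, of which 28.7% and 30% rose. Of the 4 epidermal growth factor family ligands that follow Cxcl2 and Mthfd2l, 3 rose in both comparisons: Ereg by 3.06 and 3.33, Areg by 2.58 and 2.55 and Epgn by 2.80 and 2.64. Further along, Odaph rose by 4.16 and 4.06, U90926 by 4.77 and 4.62 and Parm1 by 1.44 and 1.47, while Rchy1 fell by 0.47 and 0.43 (the highest edgeR adjusted p of these 14 values was 8.87e-05). The fourth of those ligands, Btc, was not called in WT (0.70; edgeR adjusted p = 0.0604) and rose by 1.30 in SIRT5F101L (adjusted p = 0.000765). Epgn, Areg, Odaph and U90926 averaged only 0.138, 0.224, 0.292 and 0.291 CPM in Control, so their fitted sizes rest on low Control values. The counts and medians above include these genes. Naaa, close to Cxcl9, read -0.088 and -0.11 and was not called. The plot of fold changes in gene order shows that genes with large and small changes alternate within the stretch. Cxcl12, Cxcl14 and Cxcl16 lie on chromosomes 6, 13 and 11.

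**Figure D4:**
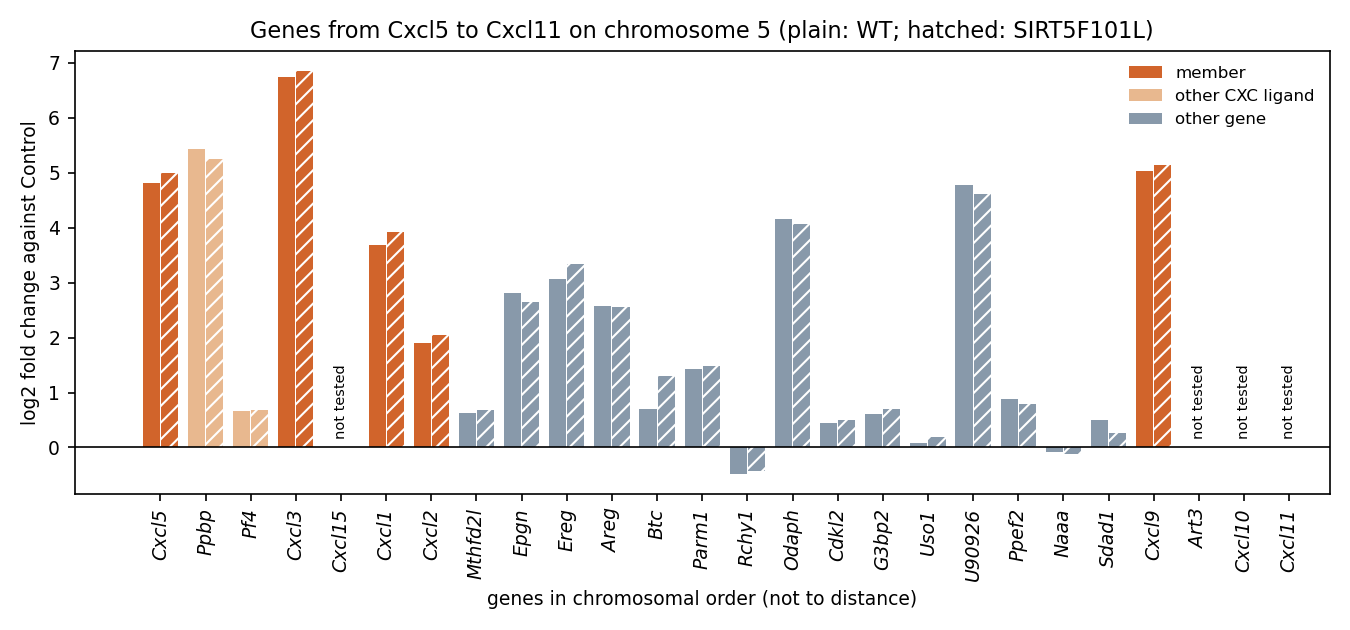
Log2 fold change against Control of the 26 protein-coding genes and members from Cxcl5 to Cxcl11 in chromosomal order, not to distance. Plain bars are WT and hatched bars SIRT5F101L. Cxcl3, Ppbp, Cxcl9 and Cxcl5 carry the highest bars, U90926 and Odaph lie above Cxcl1 and Cxcl2, and Cxcl15, Art3, Cxcl10 and Cxcl11 were not tested.

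Genes whose log2 CPM followed a member most closely over the 12 libraries were named for the most abundant member of each class, among 9701 genes. With Cxcl5, Pearson's r was 0.999 for Ugdh, 0.999 for Mmp3 and 0.998 for Bmp2, and 210 genes had an r over 0.99. With Cxcl12 it was 0.999 for Dkk3, Gas1 and Ccn3, and 144 genes had an r over 0.99. With Cxcl9 it was 0.994 for Cd34, 0.993 for Nek2 and 0.993 for Alox12, with 11 genes over 0.99. The 12 points fall into Control and plasmid libraries, so these values describe that gap and carry no test. Mmp3, for example, went from 16.3 CPM in Control to 1533 in WT and 1880 in SIRT5F101L, and Dkk3 from 1004 to 110 and 115.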

How the data were processed

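Poly(A) RNA-seq was deposited as whole-number read counts per Ensembl gene ID for 12 libraries, 4 a group. The submitters' processing notes name FastQC 0.11.9, HISAT2 2.2.1, HTSeq 2.0.2 and DESeq2 1.38.3 and the builds GRCm39 and mm39, and the strand setting is not given in the sources used here. Of 57010 IDs, 52029 were paired with a symbol. The members and gene lists were chosen with earlier results of these data known.

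Counts as deposited by the authors were scaled by TMM and tested in edgeR 4.0.16 (R 4.3.3) with its quasi-likelihood test, the default filter by group and 1 fit of all 12 libraries (9 residual degrees of freedom, biological coefficient of variation 9.185%). Tests were 2-sided, and Benjamini-Hochberg adjustment ran over 14253 genes. The pipeline was tested on simulated data. Total counts ran from 15095357 to 24242139, and no libraries were identical. Alternatives were RLE and upper-quartile scaling, other filters, DESeq2 1.42.0, fits of 8 libraries, each library left out, and union exon length. GENCODE M21 gave lengths, gene order, exon overlaps and copies, and RefSeq the upstream sequences. Both are on GRCm38, another build than the notes name, and strand was ignored in overlaps.

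Named were the members, the other CXC ligands, the receptors, the 3 genes of each other list with the lowest adjusted p in SIRT5F101L against Control, the neighbours tested, and the 3 genes with the highest Pearson's r to the most abundant member of each class (mean of at least 5 CPM). Of the genes this rule takes, 1 is not reported here.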

Additional observations from a re-analysis of the deposited data

Results flagged for a closer look

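Cxcl5 in SIRT5F101L replicate 1 stood far from the rest of its group, at 358 CPM against 318 to 320 in the other 3 libraries. The gap made up 0.937 of the group's whole range, above Dixon's 95% critical value for 4 samples. In the screen, 36 groups of 4 libraries were examined over 12 genes, where chance gives about 1.8 such cases and 1 was found. The same library was the highest of the 8 plasmid libraries for 7 of the 8 members tested.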

How the results depend on the processing

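The number of CXC chemokines called, 7 and 7 against Control and 0 between SIRT5F101L and WT, held in all 18 alternatives of each comparison, and no fold change against Control reversed. Between SIRT5F101L and WT, signs turned only where 1 library was left out. There the log2 fold change ran from -0.086 to 0.23 for Cxcl2, -0.043 to 0.020 for Cxcl14, -0.14 to 0.039 for Cxcl16, -0.11 to 0.27 for Pf4 and -0.82 to 0.10 for Cxcr4, none of them called. The cause was not tested. Pf4 in WT was also not called with upper-quartile scaling (adjusted p = 0.0563) or DESeq2 (0.0566), Uso1 in SIRT5F101L was lost with upper-quartile scaling (edgeR adjusted p = 0.0508) and without SIRT5F101L replicate 2, and Btc in WT was gained with a mean of at least 1 CPM (edgeR adjusted p = 0.0462) and without Control replicate 2. Hapln1 in SIRT5F101L was lost with upper-quartile scaling (edgeR adjusted p = 0.1103) and without the filter (0.0556). With a mean of at least 1 CPM, 1 receptor was called in each comparison with Control, since fewer were tested. The genes called between SIRT5F101L and WT numbered 6, but 354 without the filter, 38 with DESeq2 and 2212 without SIRT5F101L replicate 1. Fewer were called with a mean of at least 1 CPM (4), in the fit of 8 libraries (2) and without Control replicate 2 (3). Leaving out any other single library gave 0. No paired analysis was possible because the replicate numbers follow the order of deposition and pair no libraries. Depth limits Cxcl3, Cxcl9, Epgn, Areg, Odaph and U90926 in Control and Cxcr4, Cxcr5, Ackr2, Cxcr1 and Cxcr2 throughout. Listed zeros allow no statement on Cxcl10 or Cxcl11.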
